A study of Mus musculus with 4 samples.

Results

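The collagen genes of the mouse lung were taken as all gene symbols of the pattern Col, a number, a, a number that stood in both deposited expression tables. This gave 43 genes out of 23284, 11 of them fibrillar, 6 of the type IV family of basement membranes and 26 of other kinds. Col26a1 is listed under its older symbol and was therefore not matched. Lung RNA had been sequenced in 4 libraries, 1 per group. The first was from IL22-/- mice and the second from wild-type mice, both made allergic to house dust mite (HDM) by sensitization and challenge, which models asthma, and both sampled 48 h after the final exposure. The third was from wild-type mice given recombinant IL-22 into the trachea and the fourth from wild-type mice given phosphate-buffered saline (PBS) by the same route, both sampled at 24 h. All mice were of the strain C57BL/6. The labels give neither age nor sex, nor whether 1 animal or several went into a library. The question of the first pair is what losing IL-22 does to the allergic lung, and that of the second is what IL-22 does to a lung without allergen.

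Collagens are proteins of the extracellular matrix in which 3 chains wind into a triple helix. The fibrillar types I, III and V form the tension-bearing fibrils of airway walls, vessels and alveolar septa, and in the lung fibroblasts and smooth muscle cells make most of them. Type IV forms the sheet-like network of basement membranes under epithelium and endothelium, and type VI a beaded filament network close to cells. Deposition of collagen under the airway epithelium is a known part of airway remodelling in long-standing asthma.

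The values are FPKM, fragments per kilobase of transcript, scaled to the library's mapped fragments, so levels of different genes can be set side by side. Differences are of log2(FPKM + 1), given where the pair's mean FPKM reached 1, and a gene was called higher or lower where that difference was at least 1 in size. With 1 library per group no test was possible and no difference has a replicate check. Depth was estimated from the steps of low FPKM values at 27.1 and 24.7 M reads (M, mega) in the knockout and wild-type HDM libraries, and 28.6 and 19.8 M reads in the IL-22 and PBS libraries. The 95% intervals given with FPKM ratios cover counting error only and say nothing of the spread between animals. Il22 itself (chromosome 10, 118204942 to 118210047) was listed at 0 in the knockout library against 0.362 FPKM in the wild-type HDM library, and at 0 in both the IL-22 and PBS libraries. Alveolar type II markers, which define lung tissue, were present in every library, with 8 of 8 measured in both pairs. In whole-lung RNA, fewer cells of a type and less RNA per cell cannot be told apart.

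Collagen transcripts made up 0.0846% of all FPKM in the knockout HDM library and 0.0943% in the wild-type HDM library, and 0.1501% with IL-22 and 0.139% with PBS. The collagen sums were 571 and 643 FPKM in the HDM pair, and 962 with IL-22 against 956 with PBS. A share also depends on the total, which was 640483 FPKM with IL-22 and 688738 with PBS. The single gene Scgb1a1 held 17.6% and 20.5% of those totals. The most abundant was Col3a1 in each of the 4 libraries. The 7 most abundant genes held 74.0% of the collagen FPKM in the knockout HDM library and 79.1% in the wild-type HDM library, and 81.4% with IL-22 and 81.2% with PBS. These were Col1a1, Col1a2, Col3a1, Col4a1, Col4a2, Col6a1 and Col6a2, except that Col4a3 stood in place of Col1a1 in the knockout HDM library. Between 24 and 25 collagen genes reached 1 FPKM in a library, and 18 or 19 lay under it.

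**Figure D1:**
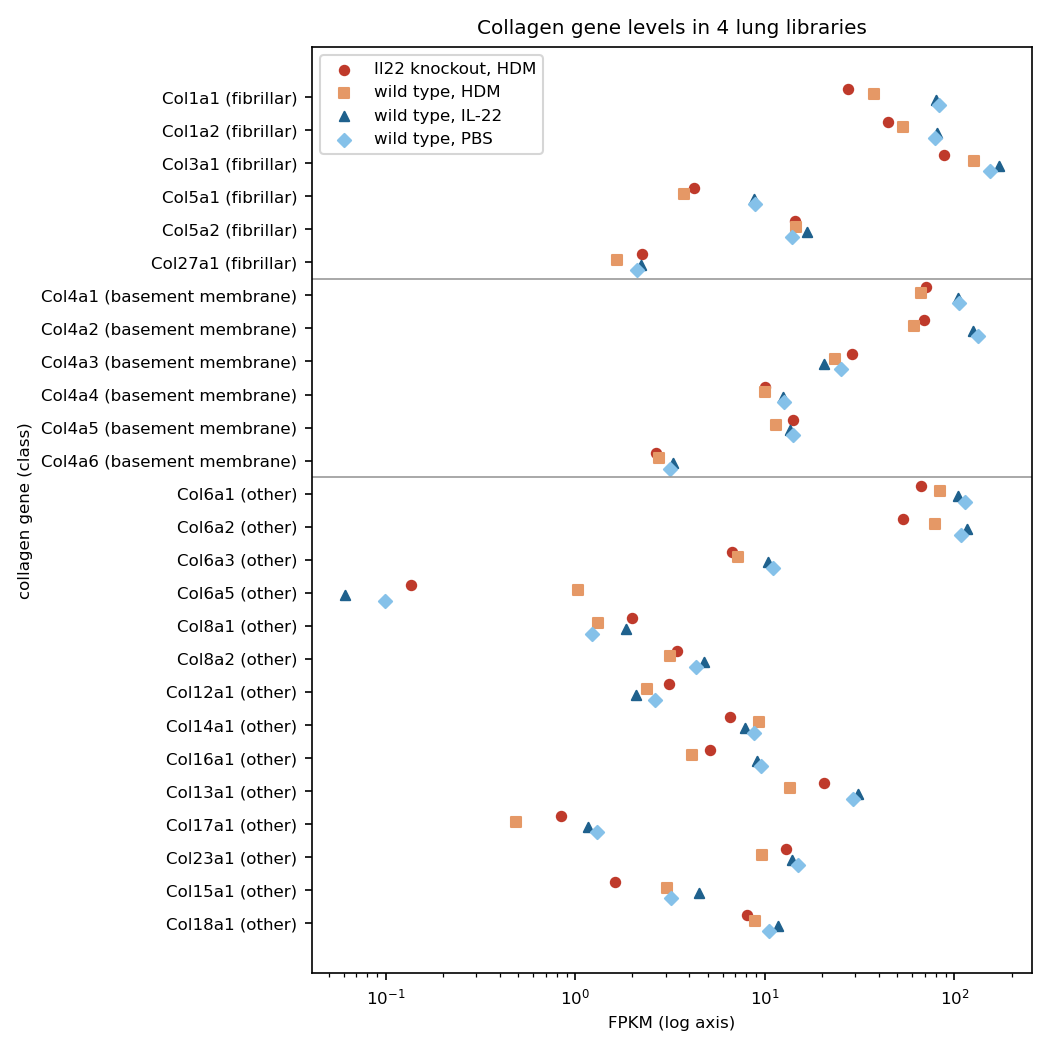
FPKM (log axis) of the 25 collagen genes whose mean FPKM reached 1 in either pair, and of Col6a5, with 1 symbol per library and lines between the fibrillar, basement membrane and other classes. Col3a1 lies farthest to the right and Col6a5 is the gene whose 4 libraries lie farthest apart.

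No collagen gene differed by the size rule in either pair. In the HDM pair 24 of 43 were measured, and 0 were higher and 0 lower in the knockout library, where 0.549% of all 13285 measured genes were higher and 2.42% lower. Their differences ran from -0.62 to 0.56, with a median of 0.04 beside 0.03 over all measured genes. In the other pair 25 were measured, and 0 were higher and 0 lower with IL-22, where 0.597% of all 13233 measured genes were higher and 0.189% lower. Those differences ran from -0.29 to 0.38, with a median of -0.01 beside 0.04 over all measured genes. Of all measured genes, 53.9% lay above 0 in the HDM pair and 58.6% in the IL-22 pair. Counts above or below 0 given further on stand beside these shares. By a looser rule of 1.5-fold on the log2(FPKM + 1) scale, 1 of 24 was lower and 0 higher in the knockout library. Of all measured genes, 6.41% were lower and 3.23% higher by that rule. With IL-22, 0 of 25 were higher or lower by it, against 1.96% higher and 0.461% lower of all measured genes. The added 1 shrinks these differences. As plain FPKM ratios, Col13a1 and Col8a1 each stood at 1.51 and Col15a1 at 0.536 in the HDM pair, and Col8a1 at 1.51 in the IL-22 pair.

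The classes nevertheless stood differently to each other in the HDM libraries. The 6 measured fibrillar genes had a median difference of -0.13, the 6 type IV genes 0.13 and the 12 measured genes of other kinds -0.00. Summed over all class members, fibrillar collagens were at 182 FPKM in the knockout HDM library and 239 in the wild-type HDM library, while type IV collagens were at 196 and 176. The ratio of the fibrillar to the type IV sum was 0.928 in the knockout HDM library and 1.36 in the wild-type HDM library. With IL-22 it was 1.30, against 1.16 with PBS. A ratio inside a library does not depend on how that library was scaled. The knockout HDM library was the only 1 of the 4 in which type IV outweighed fibrillar collagen.

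**Figure D2:**
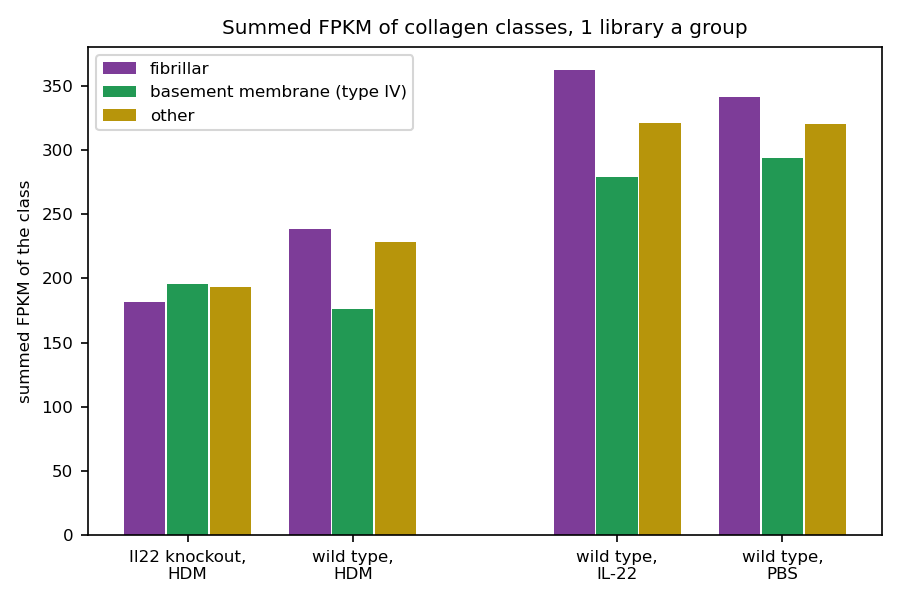
Summed FPKM of fibrillar, basement membrane (type IV) and other collagen genes, as bars from 0, 1 library per group. The fibrillar bar is the lower of the first 2 bars in the knockout HDM library, at 182 against 196, and the higher one in the other 3 libraries.

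The lower fibrillar sum of the knockout HDM library rested on the most abundant fibrillar genes. The shift in the ratio also took in the higher type IV sum, 196 FPKM in the knockout against 176 in wild type. Col3a1 (chromosome 1, 45311538 to 45349706), whose chain forms type III collagen of distensible tissue, was at 88.0 FPKM in the knockout HDM library and 127 in the wild-type HDM library, a difference of -0.52 and a ratio of 0.695 (0.679 to 0.711). It ranked 872 of 23284 genes in the knockout and 606 in wild type. Col1a1 (chromosome 11, 94936224 to 94953042), the chain present in 2 copies in type I collagen, was at 27.4 against 37.6 FPKM, a difference of -0.44. Its partner chain Col1a2 (chromosome 6, 4504814 to 4541544) was at 44.7 against 53.4 FPKM, a difference of -0.25. All 3 lay lower in the knockout library, and by unequal amounts. Col5a2, a type V chain that shares fibrils with type I, was at 14.4 FPKM in the knockout against 14.6 in wild type, and its interval of 0.936 to 1.05 includes 1. Col5a1, the other main type V chain, was at 4.24 against 3.74 FPKM, and Col27a1, a fibrillar collagen of cartilage and developing tissue, at 2.25 against 1.65. The fibrillar genes therefore did not move as a block.

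In the IL-22 pair the same genes lay close together. Col3a1 was at 172 FPKM with IL-22 against 154 with PBS, a ratio of 1.12 (1.0975 to 1.1412). Col1a1 was at 80.03 against 82.6 FPKM and Col1a2 at 80.9 against 78.8, and the sign of both differences changed with the scaling of the libraries. Col5a2 was at 16.7 FPKM with IL-22 against 14.0 with PBS, a difference of 0.24 that was the largest among the 6 measured fibrillar genes of that pair.

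Of Col1a1, Col1a2 and Col3a1, the 3 abundant fibrillar genes that were lower in the knockout library, promoters are shown for Col1a2 and Col3a1, which have an entry in the RefSeq promoter table, while Col1a1 has none there. Each is the RefSeq window of 250 bases before to 50 after the RefSeq start on GRCm38.p6, on the gene's own strand, with the CCAAT box letters, the TATA box core TATAAA and the GC box letters GGGCGG in capitals on either strand.
Col1a2, chr6:4505368-4505667, plus strand: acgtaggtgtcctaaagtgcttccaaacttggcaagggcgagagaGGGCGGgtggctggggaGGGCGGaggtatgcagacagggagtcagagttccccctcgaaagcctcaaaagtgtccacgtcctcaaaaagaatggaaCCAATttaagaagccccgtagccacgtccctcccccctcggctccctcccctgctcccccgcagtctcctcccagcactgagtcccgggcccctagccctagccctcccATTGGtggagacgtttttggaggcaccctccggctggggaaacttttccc
Col3a1, chr1:45311288-45311587, plus strand: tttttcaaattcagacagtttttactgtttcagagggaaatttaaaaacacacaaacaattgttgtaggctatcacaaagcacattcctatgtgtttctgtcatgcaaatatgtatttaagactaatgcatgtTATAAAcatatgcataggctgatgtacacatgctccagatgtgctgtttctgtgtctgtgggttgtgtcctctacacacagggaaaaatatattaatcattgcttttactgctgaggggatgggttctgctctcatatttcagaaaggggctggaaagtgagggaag
The RefSeq start of Col1a2, at 4505618, lies 804 bases inside the gene as annotated above, and that of Col3a1 is the annotated gene start. Relative to the RefSeq start, the Col1a2 window holds GGGCGG at 205 and 188 bases before the start, CCAAT at 109 bases before it, and CCAAT on the other strand at the start itself. The Col3a1 window holds TATAAA at 117 bases before the start and neither CCAAT box nor GC box letters. The letters are a description and not proof of a binding site. Of 43 collagen genes 35 had an entry in that table, with 38 windows in all. CCAAT on either strand was in 34.2% of these 38 windows and in 37.4% of all 32851 windows, TATAAA in 13.2% and 13.6%, and GGGCGG in 60.5% and 35.7%. CAGACA, a SMAD-type sequence, was in 23.7% and 21.04%, and the SMAD palindrome GTCTAGAC, which shares its last letters AGAC with it, in 0 of 38 windows and 0.213% of all. The other 3 have no overlap in letters with these.

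Type IV chains lay level or slightly up in the knockout HDM library. Col4a1 and Col4a2, whose chains join in the type IV network found in nearly all basement membranes, were at 71.2 and 69.1 FPKM in the knockout, against 66.8 and 61.5 in wild type, differences of 0.09 and 0.17. Col4a3 and Col4a5, chains of the alveolar and glomerular basement membrane network, were at 28.9 and 14.0 FPKM in the knockout against 23.4 and 11.5 in wild type, differences of 0.29 and 0.26. Col4a4, a further chain of that network, was at 10.02 FPKM in the knockout against 10.05 in wild type, with an interval for the ratio of 0.944 to 1.05. Col4a6, a chain of smooth muscle and some epithelial basement membranes, was at 2.65 against 2.77 FPKM. Of the 6 genes 4 lay above 0 and 2 below, where 53.9% of all measured genes lay above 0.

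With IL-22, 5 of the 6 type IV genes lay below 0 and their median was -0.04, where 58.6% of all measured genes lay above 0. Col4a3 had the largest difference, at 20.5 FPKM with IL-22 against 25.2 with PBS, a ratio of 0.813 (0.780 to 0.848). Col4a1 was at 104 against 106 FPKM and Col4a2 at 125 against 133. The signs of Col4a1, Col4a2, Col4a4 and Col4a5 changed with the scaling of the libraries, and that of Col4a3 did not. Col4a3 thus lay above wild type in the knockout HDM library and below PBS in the IL-22 library.

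Col4a1 (chromosome 8, 11198423 to 11312826, minus strand) and Col4a2 (chromosome 8, 11312805 to 11449287, plus strand) start head to head, and their annotated ends overlap. Their promoter windows are shown because both genes kept near-equal levels, and the 78 bases that belong to both windows are in capitals, in each case read on the gene's own strand.
Col4a1, chr8:11312777-11313076, minus strand: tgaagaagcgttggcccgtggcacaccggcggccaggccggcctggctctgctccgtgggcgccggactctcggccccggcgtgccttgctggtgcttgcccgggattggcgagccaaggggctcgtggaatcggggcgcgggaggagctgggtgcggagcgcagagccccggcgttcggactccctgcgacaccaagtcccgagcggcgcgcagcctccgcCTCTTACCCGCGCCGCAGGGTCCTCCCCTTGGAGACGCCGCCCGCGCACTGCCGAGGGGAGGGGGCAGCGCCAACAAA
Col4a2, chr8:11312555-11312854, plus strand: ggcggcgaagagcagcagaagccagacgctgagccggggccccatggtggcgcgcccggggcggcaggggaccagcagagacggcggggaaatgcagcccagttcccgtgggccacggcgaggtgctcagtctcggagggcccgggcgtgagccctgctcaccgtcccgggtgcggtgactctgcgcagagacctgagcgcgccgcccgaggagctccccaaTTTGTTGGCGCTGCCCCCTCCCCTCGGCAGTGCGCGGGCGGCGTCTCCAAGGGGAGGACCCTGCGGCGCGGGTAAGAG
The ratio of Col4a1 to Col4a2 FPKM was 1.03 in the knockout HDM library and 1.09 in the wild-type HDM library, 0.833 with IL-22 and 0.798 with PBS. Whether the counting used strand is not given in the sources used here, so reads from the overlapping stretch cannot be told apart. That stretch, from 11312805 to 11312826, is short beside the transcripts of 6615 (Col4a1) and 6450 (Col4a2) bases.

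Chains that join in 1 molecule kept their ratios to a varying degree. The ratio of Col6a3 to Col6a1 was between 0.0861 and 0.1003 in the 4 libraries, and that of Col6a1 to Col6a2 between 0.898 and 1.24. Col1a1 to Col1a2 stood at 0.614 in the knockout HDM library and 0.704 in the wild-type HDM library, but at 0.990 with IL-22 and 1.05 with PBS. Col5a1 to Col5a2 stood at 0.294 and 0.257 in the knockout and wild-type HDM libraries, and at 0.529 and 0.633 with IL-22 and PBS. For both ratios the libraries of a table lie near each other and the tables lie apart. The tables also lie apart for Col3a1 to Col1a1, chains of different molecules, at 3.21 and 3.37 in the knockout and wild-type HDM libraries. With IL-22 and PBS that ratio was 2.15 and 1.87. Col4a1 to Col4a2, given above, Col4a3 to Col4a4 and Col8a1 to Col8a2 were likewise higher in both HDM libraries. For Col4a5 to Col4a6 and the type VI ratios the tables overlap. Such a ratio does not depend on the scaling of a library, yet the tables differ in treatment, in sampling time and possibly in preparation, which cannot be told apart. In the ratios that are lower after HDM the chain on top is the richer in G and C. Col1a1 has 58.9% and Col1a2 55.7% over the transcript, and Col5a1 has 58.0% and Col5a2 49.6%. In those that are higher after HDM it is the poorer, as with Col3a1 at 52.5% and Col4a1 at 57.7% against Col4a2 at 60.6%. The part of base composition in these ratios was not tested.

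**Figure D3:**
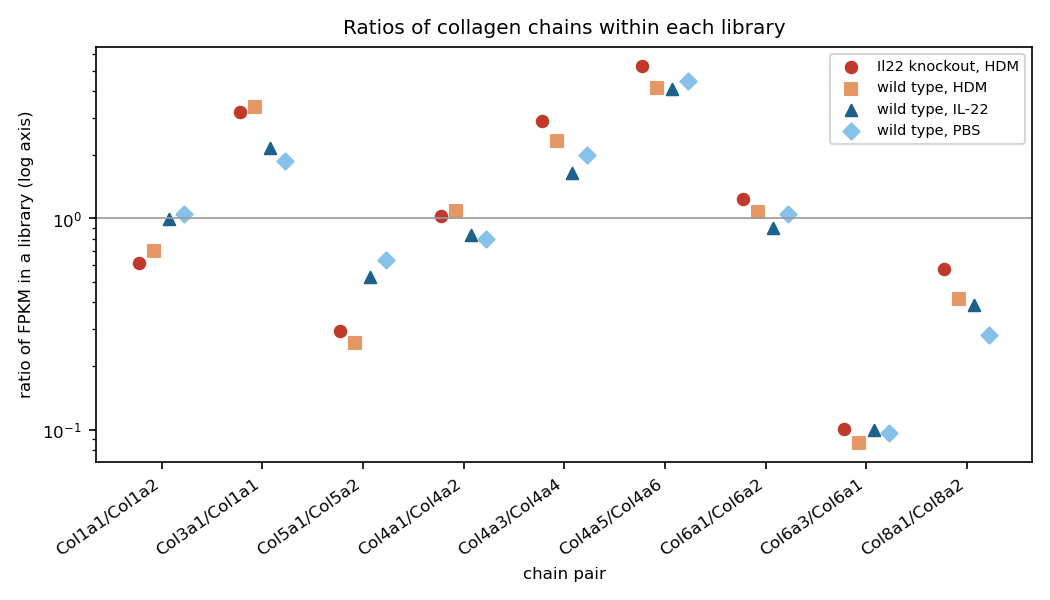
Ratio of the FPKM of paired collagen chains within each library (log axis), 1 symbol per library, with a line at 1. The HDM libraries lie below the other 2 for Col1a1/Col1a2 and Col5a1/Col5a2 and above them for Col3a1/Col1a1 and Col4a1/Col4a2, while Col6a3/Col6a1 stays between 0.0861 and 0.1003.

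Among the other collagens, the abundant type VI chains Col6a1 and Col6a2 were lower in the knockout HDM library. Col6a2 (chromosome 10, 76595762 to 76623630) was at 53.8 FPKM in the knockout against 78.6 in wild type, a ratio of 0.685 (0.661 to 0.710), and its partner Col6a1 at 66.8 against 84.0, a ratio of 0.795 (0.770 to 0.821). Col6a3, the large partner chain, was at 6.70 against 7.24 FPKM. In the IL-22 pair the same chains lay near each other, with Col6a2 at 116 against 108 FPKM and Col6a1 at 104 against 114.

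Col6a5 (chromosome 9, 105856078 to 105960643, minus strand), an alternative type VI chain that in mouse lies beside Col6a4 and Col6a6, stood apart, and was singled out after its values were seen. It was at 0.137 FPKM in the knockout HDM library and 1.04 in the wild-type HDM library, at 0.0607 with IL-22 and 0.0987 with PBS. Its steps gave 34 and 236 whole reads in the knockout and wild-type HDM libraries, and 16 and 18 with IL-22 and PBS. The wild-type HDM library is thus high and the other 3 are low, of which the knockout HDM library is the highest. The ratio of knockout to wild type was 0.132 (0.0891 to 0.189), a 7.59-fold lower level. In the IL-22 pair the ratio was 0.615 (0.294 to 1.28), so a difference was not detectable at this depth. The mean FPKM of the HDM pair was under 1, which kept Col6a5 from the size rule, and its difference of -0.84 is held down by the added 1. With FPKM of at least 1 in either library and 0.1 added in place of 1, a rule chosen after seeing the data, the difference was -2.26. Col6a5 enters under that rule only through the wild-type HDM library, in which it is high, so its place as the 1 collagen then listed lower was set by the rule and supports nothing. That rule lists 4.17% of 13560 genes as lower and 1.09% as higher in the knockout, and 0.335% of 13422 as lower and 1.13% as higher with IL-22, where it lists 0 collagens. Its neighbours lay low in all 4 libraries: Col6a4 was between 0.0607 and 0.103 FPKM, with 15 reads in the knockout HDM library against 11 in the wild-type HDM library, and Col6a6 was between 0.0424 and 0.0901 FPKM. The Col6a5 promoter window is shown as that of the gene with the lowest ratio in the HDM pair among the genes of the ratio plot, with GGGCGG, found at 57 bases before the start, in capitals.
Col6a5, chr9:105960594-105960893, minus strand: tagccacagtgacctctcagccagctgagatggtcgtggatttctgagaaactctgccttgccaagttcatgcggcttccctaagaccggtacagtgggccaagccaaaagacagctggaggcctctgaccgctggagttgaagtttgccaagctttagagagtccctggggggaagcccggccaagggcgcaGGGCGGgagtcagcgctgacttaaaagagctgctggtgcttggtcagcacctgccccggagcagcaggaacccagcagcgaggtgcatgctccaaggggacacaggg

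**Figure D4:**
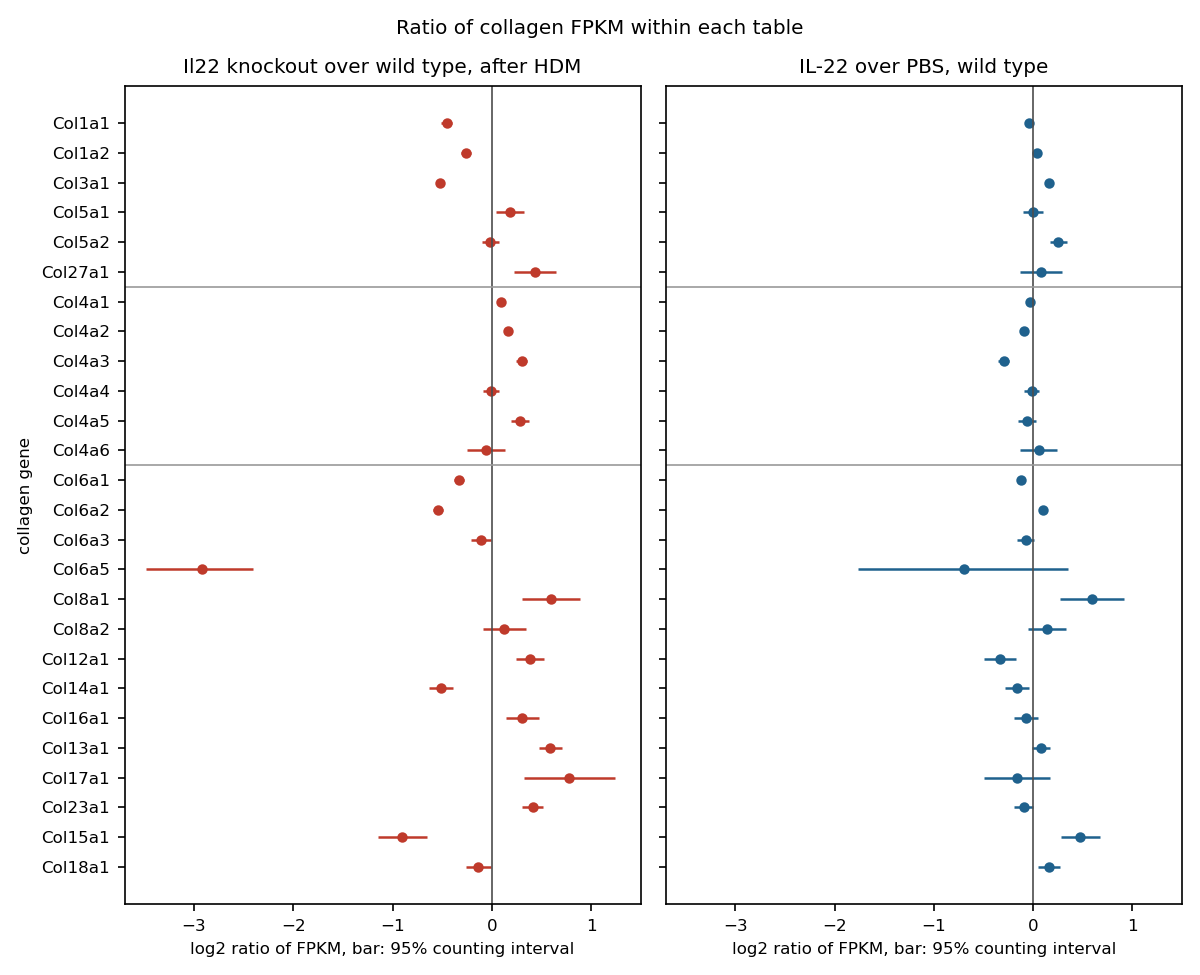
Log2 ratio of FPKM, with nothing added, for the same genes, knockout over wild type after HDM on the left and IL-22 over PBS on the right; points are ratios, bars are 95% counting intervals, and lines part the fibrillar, basement membrane and other classes. Col6a5 at a ratio of 0.132 lies far to the left in the HDM pair, Col15a1 at 0.536 is next, and the points of the IL-22 pair lie mostly nearer 0.

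Col15a1 (chromosome 4, 47208161 to 47313167), a multiplexin of the zone beneath vascular and muscle basement membranes, was the only measured collagen past 1.5-fold on the log2(FPKM + 1) scale in the HDM pair. It was at 1.63 FPKM in the knockout HDM library and 3.04 in the wild-type HDM library, a difference of -0.62 and a ratio of 0.536 (0.451 to 0.634). With IL-22 it was at 4.47 FPKM against 3.22 with PBS, a difference of 0.38 that was the largest in that pair. Col15a1 was thus lower in the knockout and higher with IL-22. Markers of fat, heart muscle and smooth muscle stood the same way. Interstitial macrophage markers did so too, at 159 against 440 FPKM in the HDM pair and 425 against 230 in the IL-22 pair. Endothelial markers stood the other way after HDM, at 1616 FPKM in the knockout against 1106 in wild type. The fat cell markers measured in the HDM pair summed to 65.5 FPKM in the knockout against 147 in wild type, with 3 of 6 lower, and in the other pair to 491 FPKM with IL-22 against 225 with PBS, with 5 of 7 higher. The heart muscle markers summed to 149.68 against 391.98 FPKM in the HDM pair, with 8 of 8 lower, and to 1124 against 768 in the IL-22 pair, with 1 of 10 higher. Smooth muscle markers summed to 516 against 731 FPKM in the HDM pair, with 1 of 10 lower, and to 1139 against 601 in the IL-22 pair, with 3 of 10 higher. The part of these tissues and cells in the Col15a1 values was not tested. Col18a1, the other multiplexin and the source of the fragment endostatin, was at 8.05 against 8.83 FPKM in the HDM pair and 11.8 against 10.5 in the IL-22 pair.

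The transmembrane collagens, which sit in the cell surface with the helix outside, lay on the opposite side. Col13a1 (chromosome 10, 61838236 to 61979108), a marker of a lung fibroblast subset, was at 20.4 FPKM in the knockout HDM library and 13.5 in the wild-type HDM library, a difference of 0.56 and a ratio of 1.51 (1.39 to 1.63). Col23a1 was at 12.9 against 9.66 FPKM, a difference of 0.38. Col17a1, the hemidesmosome collagen of basal epithelium, was at 0.839 against 0.489 FPKM, below the filter. All 3 were higher in the knockout library. In the IL-22 pair Col13a1 was at 31.0 against 29.3 FPKM, Col23a1 at 13.9 against 14.9 and Col17a1 at 1.17 against 1.31, differences of 0.08, -0.09 and -0.09, and the sign for Col23a1 changed with the scaling.

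Fibril-associated collagens, which decorate the surface of fibrils, went both ways. Col14a1, found on mature type I fibrils and used as the marker of the other fibroblast subset, was at 6.56 FPKM in the knockout HDM library and 9.35 in the wild-type HDM library, a ratio of 0.702 (0.645 to 0.764). Col12a1, its relative of tendon and strained tissue, was at 3.11 against 2.38 FPKM, and Col16a1 at 5.12 against 4.14. Col13a1 and Col14a1, which mark separate fibroblast subsets of the lung, therefore lay on opposite sides of 0. With IL-22 both Col14a1 and Col12a1 lay lower, at 7.88 against 8.82 FPKM and 2.09 against 2.63.

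The short-chain network collagen Col8a1, made by vascular smooth muscle and endothelium, was above its comparison library in both pairs. It was at 1.99 FPKM in the knockout against 1.32 in wild type after HDM, a ratio of 1.51 (1.24 to 1.85), and at 1.84 with IL-22 against 1.22 with PBS, a ratio of 1.51 (1.21 to 1.89). The pairs share no library. Its partner Col8a2 was at 3.46 against 3.17 FPKM in the HDM pair and 4.76 against 4.33 in the other, and both of its intervals include 1.

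Of the collagens under the filter in both pairs, those of cartilage had few reads or none, with Col11a2 the highest in reads. Col2a1, the fibrillar collagen of cartilage, and Col9a1 and Col9a2, which coat its fibrils, were listed at 0 in both HDM libraries and had 1 read at most with IL-22 or PBS. Acan, the cartilage proteoglycan, was at 0 in 3 libraries and at 0.00483 FPKM with IL-22, and 1 of 10 cartilage markers, Chad, was measured. Col11a2, a chain of the type XI fibrils of cartilage, had 25 and 38 reads in the knockout and wild-type HDM libraries and 18 and 10 with IL-22 and PBS, and intervals of 0.348 to 1.02 and 0.545 to 3.02 for the ratios. Its partner Col11a1 had 1 and 3 reads in the knockout and wild-type HDM libraries and 3 and 0 with IL-22 and PBS. Col10a1, the collagen of hypertrophic cartilage, had 1 and 4 reads in the knockout and wild-type HDM libraries and 3 and 1 with IL-22 and PBS. Col9a3 had 7 and 16 reads in the knockout and wild-type HDM libraries, with an interval of 0.139 to 1.03 for the ratio. Col20a1, a fibril-associated collagen, was at 0.476 FPKM in the knockout against 0.291 in wild type after HDM, with 1.05 to 2.53 as the interval of the ratio. Col7a1, the anchoring fibril chain beneath stratified epithelium, lay between 0.235 and 0.443 FPKM in the 4 libraries, and Col28a1 between 0.352 and 0.617. Col5a3, the least abundant type V chain, lay between 0.602 and 0.980 FPKM. Col19a1, Col22a1, Col24a1 and Col25a1 lay below 0.1 FPKM in all 4 libraries.

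The machinery that builds collagen did not differ by the size rule. Of 17 measured genes of chain modification and folding, 0 were higher or lower in either pair, with medians of 0.04 in the HDM pair and 0.02 in the IL-22 pair. Serpinh1, the collagen-specific chaperone, was at 180.1 FPKM in the knockout HDM library and 186 in the wild-type HDM library, and at 299.95 with IL-22 against 220.1 with PBS, a difference of 0.44. P4ha1, a prolyl hydroxylase subunit, was at 27.0 against 29.3 FPKM and 22.8 against 23.4. Glt25d2, which adds galactose to collagen hydroxylysine, had the largest difference of the list in the HDM pair, 0.72, at 4.69 FPKM in the knockout against 2.45 in wild type.

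Processing and cross-linking genes were called neither higher nor lower, with 10 measured in the HDM pair and 9 in the other, and medians of 0.02 in both. Pcolce2, an enhancer of procollagen cleavage, was at 185 FPKM in the knockout HDM library and 104 in wild type, a difference of 0.82, and at 155 with IL-22 against 192 with PBS. Bmp1, the protease that trims the carboxyl end of fibrillar procollagen, was at 9.92 against 11.7 FPKM after HDM and 9.005 against 9.71 with IL-22 and PBS. Lox, the cross-linking oxidase, was at 18.9 against 16.6 FPKM after HDM and 9.25 against 8.33 in the IL-22 pair.

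Of 9 measured genes of collagen breakdown and uptake, 2 were lower and 0 higher in the knockout after HDM, with a median of 0.07. Ctsk, a collagen-degrading cathepsin of macrophages and osteoclasts, was at 12.2 FPKM in the knockout against 45.2 in wild type, and Timp1, an inhibitor of matrix metalloproteinases, at 17.3 against 60.9. Mmp2, a gelatinase that cuts denatured and type IV collagen, was at 39.4 against 42.2 FPKM, and Mmp14, a membrane-bound collagenase, at 22.5 against 26.1. Interstitial macrophage markers had a sum of 159 FPKM in the knockout against 440 in wild type, and 4 of 9 were called lower. Their part in the Ctsk and Timp1 values was not tested. With IL-22 no breakdown gene was called, and 6 of 9 lay below 0, where 58.6% of all measured genes lay above 0. Timp1 had the largest difference there, 0.47, at 28.8 FPKM with IL-22 against 20.4 with PBS, and Mmp2 the next, -0.42, at 48.6 against 65.3. Interstitial macrophage markers summed to 425 FPKM with IL-22 against 230.03 with PBS, with a median difference of 0.79 and 2 of 9 called higher. Their part in the Timp1 value was not tested.

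Collagen receptors were not called in either pair, with 7 measured and medians of 0.06 and 0.10 in the HDM and IL-22 pairs. Lair1, an inhibitory collagen receptor of leukocytes, had a difference of -0.55 in the HDM pair, at 1.77 FPKM against 3.06, and of 0.44 in the IL-22 pair, at 2.63 against 1.68. The interstitial macrophage sums given above stand the same way in both pairs, and their part in the Lair1 values was not tested. Among 14 measured proteins that sit on or beside fibrils, Thbs1, a matrix glycoprotein that activates latent TGF-beta, was the 1 called lower, at 26.1 FPKM in the knockout against 65.0 in wild type after HDM. Fn1 (fibronectin) was at 25.0 against 43.9 FPKM, a difference of -0.79, while Ogn, a small leucine-rich proteoglycan, was at 337 against 184, a difference of 0.88. Dcn (decorin), which binds type I fibrils, was at 146 against 139. With IL-22 none of the 14 was called, and Fn1 was at 30.7 FPKM against 39.2 with PBS.

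The laminins and other basement membrane partners stood as the type IV chains did. Of 15 measured in the HDM pair 10 lay above 0, as did 53.9% of all measured genes, and 0 were called, with a median of 0.11. Nid1, which links laminin to type IV collagen, was at 19.6 FPKM in the knockout against 15.6 in wild type. Of 16 measured in the IL-22 pair 12 lay below 0 and 0 were called, with a median of -0.17. Of all measured genes 58.6% lay above 0 there. Lamb3, a laminin-332 chain, was at 20.4 FPKM with IL-22 against 28.7 with PBS. Hspg2 (perlecan) was at 5.95 against 6.30 FPKM after HDM and 12.6 against 15.7 in the IL-22 pair, and Lama5 at 7.23 against 7.37 and 8.50 against 9.46. Of the TGF-beta ligands and targets, 10 were measured in each pair, 0 were called, and the medians were -0.20 and 0.17. Tgfbi, a collagen-binding target of TGF-beta, was at 15.5 against 27.1 FPKM after HDM and Ctgf, another target, at 121 against 87.4.

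Several marker lists of lung cell types, those of collagen-making cells among them, also differed in the HDM pair. All 10 endothelial markers lay above 0 in the knockout, where 53.9% of all measured genes did. Of these 10 markers 1 was called higher, and their sum was 1616 FPKM against 1106. Of 12 lung fibroblast markers 2 were called higher, Inmt and Tcf21, and the sum was 3999 FPKM against 2471, of which Inmt gave 2511 and 1031. Alveolar type I markers summed to 4391 against 3504 FPKM with 8 of 10 above 0, and pericyte markers to 142 against 114. Smooth muscle markers stood the other way, with 0 of 10 above 0 and a sum of 516 FPKM in the knockout against 731 in wild type. The fat cell and heart muscle sums, given above with Col15a1, were lower in the knockout as well. In the IL-22 pair fibroblast markers summed to 3340 FPKM against 4079 with PBS, endothelial markers to 1744 against 1815, alveolar type I markers to 4195 against 5446 and pericyte markers to 169 against 168. Smooth muscle markers summed to 1139 FPKM with IL-22 against 601 with PBS, with 10 of 10 above 0. Mesothelial markers summed to 314 against 286 FPKM after HDM and 434 against 462 in the IL-22 pair, and none was called in either pair. The sum of the Schwann cell markers was 336 against 284 FPKM after HDM and 298 against 349 in the IL-22 pair, with 0 called. Of the airway basal markers 2 of 7 were measured after HDM, at 5.35 against 5.62 FPKM in sum, and Aqp3 was called lower. Alveolar type II markers summed to 49747 against 41604 FPKM after HDM and 42001 against 46489 in the IL-22 pair, with 0 called. The 3 measured eosinophil markers summed to 5.98 against 8.99 FPKM, with Prg2 called lower. The part of these cells in the collagen values was not tested.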

How the data were processed

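Lung RNA of 4 groups was sequenced, 1 library per group, with groups taken from the sample titles. The deposited values are FPKM per gene, 1 table per pair. Per the submitters' processing notes, the tools were Cufflinks 2.2.1, TopHat2 and CASAVA 1.8.2, and the build was mm10. How they were set, and whether libraries were scaled to each other, is not given in the sources used here, so levels across the tables are only set side by side.

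The 23746 rows of each table were joined on symbol and accession, 25 symbols turned into dates were restored from the accession where it matched, and rows of a symbol were added, leaving 23284 genes. Differences are of log2(FPKM + 1) over genes whose mean FPKM in the pair reached 1, with no test. Coordinates are from GENCODE M21 (GRCm38, the assembly of mm10), promoters from RefSeq.

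Depth came from the whole-read steps of low values, with transcript length less 200 bases. Of 10700 low values 52.1% came within 0.1 of a whole read, against 20% by chance. Of 14 collagens with under 30 reads in a library, 10 came out within 0.1 of whole reads in all 4 after shifting the step by 10% at most. Reads of the others are estimates. The step was fitted gene by gene and a value of 0 counts as whole, so the 20% does not apply to these 14. No chance rate was computed for them. Ratio intervals are exact binomial (Clopper-Pearson) at 95% and cover counting error only. The steps were also run on simulated data, drawn as exact whole reads at the same lengths and depths. That run cannot show how the method fares on real values that fall between whole reads.

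Collagens with a mean FPKM of at least 1 in either pair are given with their values and the rest mostly by range. From 7 partner and 14 marker lists, up to 4 genes of the largest differences could be named, and Lox, Serpinh1, P4ha1, Bmp1, Dcn, Fn1, Hspg2, Nid1 and Lama5 whatever their values. Other genes were named after their values were seen. The members, lists and rules were chosen with earlier results of these data known. Alternatives were a pseudocount of 0.1, 2 scalings, no filter or one at 5 FPKM, a 1.5-fold rule, the highest row of a symbol, and a wider basement membrane class. Tables were handled in pandas 2.3.3 and numpy 2.4.6, intervals came from scipy 1.17.1 and plots from matplotlib 3.10.9, all under Python 3.11.15.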

Additional observations from a re-analysis of the deposited data

How the results depend on the processing

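No paired analysis was possible because each group has 1 library, and for the same reason no replicate could be left out. The counts of 0 collagens higher and 0 lower held in both pairs under the pseudocount, scaling, filter and row alternatives. The 1.5-fold rule, taken on the log2(FPKM + 1) scale, gave 1 lower (Col15a1) in the HDM pair. An alternative added after seeing the data, FPKM of at least 1 in either library with 0.1 added, lists 1 lower there (Col6a5), which passes that filter only through the library where it is high, so the count is set by the filter and tests nothing. The fibrillar median of the HDM pair was -0.046 with no filter and -0.35 at a mean FPKM of at least 5, where fewer genes enter. Scaling to a common total put the IL-22 pair's fibrillar median at 0.13 and its type IV median at 0.056, while the median of all measured genes went to 0.13. With Col15a1, Col18a1 and Col7a1 added, the basement membrane share of collagen FPKM was 36.1% in the knockout HDM library and 29.3% in the wild-type HDM library, 30.7% with IL-22 and 32.3% with PBS, against 34.3%, 27.4%, 29.0% and 30.8% for type IV alone. Among members, 2 of 25 changed sign under some alternative in the HDM pair and 10 of 26 in the IL-22 pair. Counting error is small for abundant chains, but spread between animals was not measured.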
